A study of Mus musculus with 9 samples.

Results

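The transcripts of 5 secreted or membrane-bound growth factors of lymphoid progenitors, Flt3l, Il7, Il15, Kitl and Tslp, were followed across mesenchymal cells of 3 mouse tissues. The 5 genes were taken by name from the deposited count tables, which list 23420 genes, and all 5 were among the 15635 genes with enough reads to be tested. RNA was sequenced from mesenchymal cells sorted as SCA1+ and lineage negative from thymus (libraries 1-3, 2 and 3), from bone (libraries 1, 2 and 3) and from dermis (skin libraries 1, 2 and 3) of C57BL/6 mice 3 to 4 weeks old. No group was treated or genetically altered, per the labels. The lineage antibodies named in the labels recognise EpCAM of epithelium, CD31 of endothelium and, for blood cells, CD2, CD4, CD45, B220, CD11b, GR-1, CD41 and TER119. The bone was femur, tibia and pelvis, cut up, digested and crushed, with lysis of red cells, and the skin was dermis of abdomen and back. The labels call 1 thymus library "1-3" and leave the meaning of that name open. Should it be a pool, the thymus spread and p-values would rest on fewer than 3 separate samples. The labels also do not say which libraries come from different animals, so every p-value measures the spread among these libraries, which may be technical.

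These 5 factors act on blood cell precursors through receptors of 2 kinds. The FLT3 ligand, encoded by Flt3l, and stem cell factor, encoded by Kitl, bind the receptor tyrosine kinases FLT3 and KIT. IL-7, IL-15 and TSLP are cytokines whose receptors signal through JAK kinases and STAT proteins, and IL-7 and IL-15 share the common gamma chain encoded by Il2rg. In the thymus IL-7 and KIT ligand sustain the earliest T cell progenitors, and thymic epithelium is the best known source of IL-7. In bone marrow perivascular stromal cells are a known source of stem cell factor.

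The depth was 78757872 (bone 3) to 116759235 (skin 3) reads assigned to genes. Levels are CPM values, a gene's reads as a rate over its library, corrected by edgeR's TMM factors. These factors spanned 1.10 to 1.18 for thymus libraries, 1.16 to 1.23 for bone libraries and 0.701 to 0.770 for skin libraries. A difference is a log2 fold change ± SE, and a gene was called when its adjusted p, by edgeR's quasi-likelihood test with Benjamini-Hochberg adjustment over all 15635 genes, was under 0.05. All 11 listed mesenchymal markers had reads in each tissue, at levels that differed between tissues. Pdgfra, the PDGF receptor alpha of fibroblastic stroma, averaged 1160 ± 37.7 CPM in thymus, 737 ± 59.0 CPM in bone and 776 ± 87.7 CPM in skin (SD, n = 3 each). Ly6a, which encodes SCA1, averaged 427, 280 and 948 CPM in thymus, bone and skin, and Col1a1 6962, 13155 and 97235 CPM. Of the 11, 4 were called higher and 4 lower in thymus minus bone, and 2 higher and 6 lower in thymus minus skin. Of all 15635 tested genes, 2584 were called higher and 2517 lower in thymus minus bone. In thymus minus skin 3013 were called higher and 2865 lower. The 9 marker lists of other cell types each had reads in every tissue, and their values stand beside the results they move with. In such bulk samples fewer cells of a type and less RNA per cell cannot be told apart.

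Thymic cells had the highest mean of all 5 transcripts. Against bone, 4 of the 5 were called higher in thymus and Il7 was not called, where 16.5% of all tested genes were called higher. Against skin, all 5 were called higher in thymus, where 19.3% of all tested genes were called higher. The median log2 fold change of the 5 genes was 2.54 for thymus minus bone and 2.58 for thymus minus skin, beside medians of 0.02 and 0.03 over all genes tested. Flt3l, Il15, Kitl and Tslp passed against both other tissues, as did 6.49% of all tested genes. In 4 of the 5, Kitl being the exception, every thymus library lay above every bone and skin library, which was so for 11.1% of all tested genes. Bone and skin split the genes 2 ways. Il7 and Kitl were higher in bone than in skin, beside 23.7% of all tested genes, Flt3l and Il15 were lower in bone, beside 23.4% of all tested genes, and Tslp was not called.

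**Figure D1:**
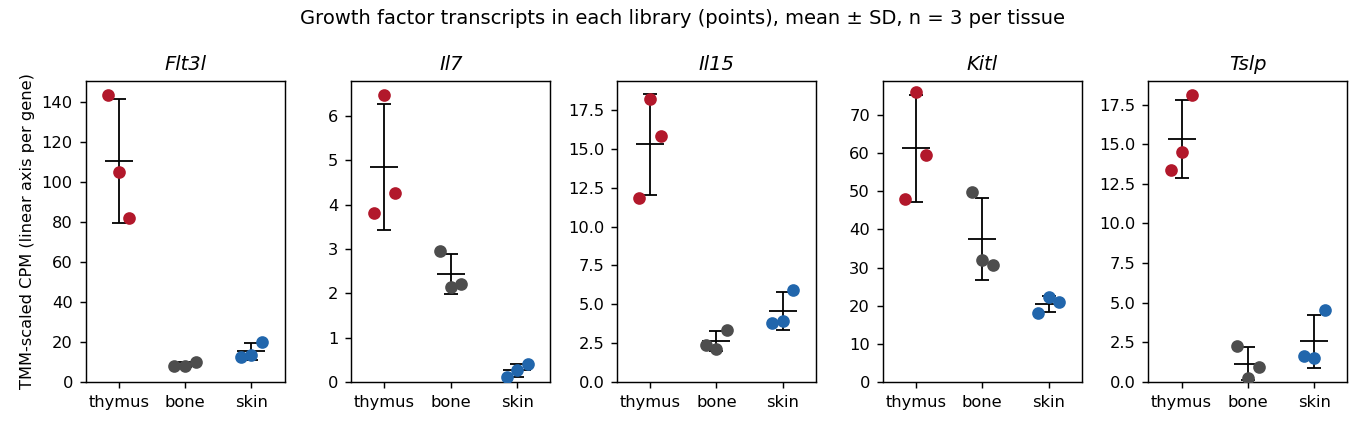
TMM-scaled CPM (y, linear, a separate axis per gene) of Flt3l, Il7, Il15, Kitl and Tslp in thymus, bone and skin, with 1 point per library and bars for the mean ± SD of n = 3. Thymus points stand apart from bone and skin in every panel except Kitl, where bone 1 at 49.8 CPM lies above thymus 1-3 at 48.1 CPM.

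Flt3l, the ligand of FLT3 on early lymphoid and dendritic cell precursors, was the most abundant of the 5 by RPKM in all 9 libraries. Its level was 144, 105 and 82.3 CPM in thymus 1-3, 2 and 3, against 7.90, 7.91 and 10.1 CPM in bone 1, 2 and 3 and 12.3, 13.4 and 20.1 CPM in skin 1, 2 and 3. The lowest thymus library was thus above every other library, and the highest bone library was below the lowest skin library. Thymus averaged 111 ± 31.1 CPM, bone 8.64 ± 1.27 CPM and skin 15.3 ± 4.26 CPM (SD, n = 3 each). The difference was 3.68 ± 0.26 for thymus minus bone (12.8-fold, adjusted p = 1.57e-06) and 2.86 ± 0.25 for thymus minus skin (7.24-fold, adjusted p = 5.13e-06), by edgeR. In RPKM, the authors' value per gene length, Flt3l averaged 112 ± 26.2 in thymus, 9.20 ± 0.610 in bone and 10.0 ± 2.73 in skin. By mean RPKM it ranked 386 of 23034 genes in thymus, against 5381 in bone and 3855 in skin.

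The lower level of Flt3l in bone than in skin was small and depended on the scaling. It was -0.82 ± 0.23 for bone minus skin with TMM factors (adjusted p = 0.0133, edgeR), but -0.14 with scaling by library size only (adjusted p = 0.626) and -0.082 by limma on log2(RPKM + 1) (adjusted p = 0.727). Scaling by library size only moved the median log2 fold change of all genes by 0.69 for bone minus skin and by 0.63 for thymus minus skin. For bone minus skin the split of called genes then went to 7474 higher and 1393 lower, against 3702 higher and 3661 lower with TMM factors. For thymus minus skin it went to 7219 higher and 1239 lower, against 3013 higher and 2865 lower. The call was also lost without bone 1 (adjusted p = 0.0505) and without bone 2 (adjusted p = 0.0501).

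Flt3l lies on the minus strand of chromosome 7, at chr7:45131189-45136432 in mm10, with 9 exons and a coding sequence of 696 bases in its GENCODE M21 transcript Flt3l-201. A longer gene model on the same strand, Gm45713, overlaps it in that annotation and is not among the genes counted. The deposited signal of Flt3l came to 99.4 to 122 read bases per counted read, against library medians of 98.5 to 99.1, with the highest value in bone 1. For Il15, which no other GENCODE gene overlaps, it came to 98.8 to 117, with the highest value in bone 2. The cause of such values was not tested. The sources used here do not say how reads shared with Gm45713 were assigned. The 150 bases before the RefSeq start of Flt3l (chr7:45136433-45136582, minus strand, GRCm38.p6) are shown since the gene is the most abundant of the 5 by RPKM, with capitals for a match to the interferon response motif, GAAA, any 2 bases and GAAA.

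Flt3l: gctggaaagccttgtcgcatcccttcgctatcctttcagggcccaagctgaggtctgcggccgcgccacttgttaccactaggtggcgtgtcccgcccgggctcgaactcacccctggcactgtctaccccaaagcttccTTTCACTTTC

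The match is on the strand opposite to the gene, at bases -10 to -1 from the start. It is a description of these letters, and 943 of 27025 RefSeq promoter windows in the mouse (250 bases before to 50 after a start), 3.49%, hold the motif on either strand. A GC box, GGGCGG on either strand, lies at -58 to -53 and is held by 35.9% of the windows. Forkhead (TGTTTAC) and EBF (TCCC, any 2 bases and GGGA) motifs, held by 3.55% and 0.91% of windows on either strand, were not found in the windows of Flt3l or Kitl.

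Il15, a cytokine of NK cells and memory T cells, had the same order of tissues as Flt3l at a lower level. It stood at 11.8, 18.2 and 15.9 CPM in thymus 1-3, 2 and 3, against 2.39, 2.13 and 3.36 CPM in bone 1, 2 and 3 and 3.79, 3.91 and 5.95 CPM in skin 1, 2 and 3. No thymus library overlapped another tissue, and the 3 bone libraries lay below the 3 skin libraries. Thymus averaged 15.3 ± 3.24 CPM, bone 2.63 ± 0.649 CPM and skin 4.55 ± 1.21 CPM (SD, n = 3 each). The difference was 2.54 ± 0.30 for thymus minus bone (adjusted p = 5.75e-05) and 1.75 ± 0.29 for thymus minus skin (adjusted p = 0.000601), by edgeR. For bone minus skin it was -0.79 ± 0.29 (adjusted p = 0.0402, edgeR). That last call was lost with library size only (-0.11), by limma on log2(RPKM + 1) (-0.11), and without any of thymus 2, thymus 3, bone 1, bone 2, skin 2 or skin 3, with values between -0.89 and -0.55. Il15 lies at chr8:82331624-82402586 on the minus strand, and no other GENCODE gene overlaps it.

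Tslp, an epithelial and stromal cytokine related to IL-7 that acts on dendritic cells and, in the mouse, on early B cells, was likewise highest in thymus. It stood at 13.3, 14.5 and 18.1 CPM in thymus 1-3, 2 and 3, against 2.28, 0.273 and 0.911 CPM in bone 1, 2 and 3 and 1.63, 1.52 and 4.51 CPM in skin 1, 2 and 3. The thymus libraries lay above all others, while bone and skin overlapped, since bone 1 exceeded skin 1 and skin 2. Thymus averaged 15.3 ± 2.47 CPM, bone 1.16 ± 1.03 CPM and skin 2.55 ± 1.69 CPM (SD, n = 3 each). The difference was 3.73 ± 0.72 for thymus minus bone (adjusted p = 0.00282) and 2.58 ± 0.68 for thymus minus skin (adjusted p = 0.0132), by edgeR.

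The bone and skin values of Tslp each turned on 1 library. Bone minus skin was -1.15 ± 0.66 and was not called (adjusted p = 0.182, edgeR), but without bone 1 it was -2.12 and was called (adjusted p = 0.0209), and without skin 3 it was -0.45. Thymus minus bone was 4.71 without bone 1, and thymus minus skin was 3.28 without skin 3. Thymus minus skin lost its call without skin 1 (adjusted p = 0.0544) or skin 2 (adjusted p = 0.0564). Tslp lies at chr18:32815383-32819799 on the plus strand in mm10. A noncoding gene on the minus strand there, 4930455D15Rik, had 12 reads in all, every 1 of them in skin 3.

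Il7, the cytokine that early T and B cell precursors depend on for survival and expansion, was the scarcest of the 5 by mean RPKM in thymus and in skin. It stood at 3.81, 6.47 and 4.26 CPM in thymus 1-3, 2 and 3, against 2.95, 2.15 and 2.21 CPM in bone 1, 2 and 3 and 0.112, 0.264 and 0.415 CPM in skin 1, 2 and 3. The skin values rest on 10, 18 and 36 reads, against 389, 771 and 509 reads in thymus and 304, 252 and 204 reads in bone. The 3 tissues did not overlap, in the order thymus, bone, skin. Thymus averaged 4.85 ± 1.42 CPM, bone 2.44 ± 0.446 CPM and skin 0.264 ± 0.151 CPM (SD, n = 3 each). Thymus minus skin was 4.19 ± 0.58 (18.3-fold, adjusted p = 0.000142) and bone minus skin 3.20 ± 0.55 (9.21-fold, adjusted p = 0.00057), by edgeR. By limma on log2(RPKM + 1), where the pseudocount exceeds the skin values, they were 1.46 and 0.89 and stayed called (adjusted p = 1.79e-05 and 0.000567).

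Thymus and bone, the neighbours in that order, differed in Il7 by 0.99 ± 0.50, which was not called (adjusted p = 0.155, edgeR). By limma on log2(RPKM + 1) the same difference was 0.58 and passed (adjusted p = 0.0128), and on log2(RPKM + 0.1) it was 0.92 (adjusted p = 0.0443). Il7 lies at chr3:7572077-7613427 on the minus strand, and its antisense partner Gm16685 is not among the genes counted. Since no source used here gives the strand setting of the counting, reads of the 2 cannot be told apart.

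Kitl, stem cell factor, differed least between tissues among the 5 in thymus minus bone and in thymus minus skin. It stood at 48.1, 76.0 and 59.6 CPM in thymus 1-3, 2 and 3, against 49.8, 31.9 and 30.7 CPM in bone 1, 2 and 3 and 18.0, 22.3 and 20.9 CPM in skin 1, 2 and 3. Skin lay below all other libraries, while bone 1 fell within the thymus range. Thymus averaged 61.2 ± 14.0 CPM, bone 37.5 ± 10.7 CPM and skin 20.4 ± 2.19 CPM (SD, n = 3 each). Thymus minus skin was 1.59 ± 0.22 (3.00-fold, adjusted p = 0.000145) and bone minus skin 0.88 ± 0.22 (1.84-fold, adjusted p = 0.00555), by edgeR, the second being 1.56 with library size only. Thymus minus bone was 0.71 ± 0.21 (1.63-fold, adjusted p = 0.0246, edgeR). That call was lost without thymus 2 (0.53, adjusted p = 0.105), without bone 2 (0.61, adjusted p = 0.0905) or without bone 3 (0.59, adjusted p = 0.0959).

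Kitl lies on the plus strand at chr10:100015824-100100412 in mm10. Its protein is made in a form that is readily cut from the membrane and a form that lacks the main cleavage site, and the forms differ by an exon. The exon, number 6 of GENCODE transcript Kitl-202, is absent from Kitl-201 and spans chr10:100080857-100080940 (plus strand, GRCm38), 84 bases or 28 codons. It is shown because the deposited counts sum both forms and cannot separate them.

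Kitl exon 6: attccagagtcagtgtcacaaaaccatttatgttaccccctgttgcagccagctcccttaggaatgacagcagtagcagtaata

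The 30 bases before the RefSeq start of Kitl (chr10:100015791-100015820, plus strand, GRCm38.p6) are shown with a TATA box, TATAAA, in capitals at -25 to -20. GENCODE starts Kitl-202 farther upstream, at chr10:100015630, so these bases lie before the RefSeq start but within the span of Kitl-202.

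Kitl: agctgTATAAAaagcgctggcggcgcagca

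That motif is held by 14.2% of the promoter windows on either strand. GC boxes of Kitl lie at -45 to -40, at -41 to -36, overlapping the first, and on the other strand at -143 to -138. The interferon response motif was not found in the window of Kitl. RefSeq windows were matched for Flt3l and Kitl, 2 of the 5 genes.

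**Figure D2:**
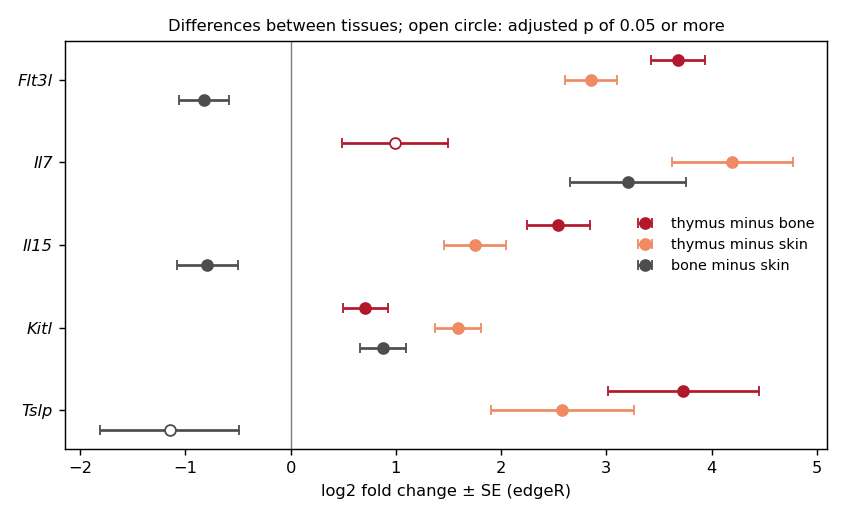
Log2 fold change ± SE (x) of each factor (rows) for thymus minus bone, thymus minus skin and bone minus skin, from edgeR. All 10 thymus values lie to the right of 0, Il7 for thymus minus bone is open (not called), and bone minus skin splits into Il7 and Kitl right of 0 and Flt3l, Il15 and Tslp left of 0.

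Per gene length, the mixture of the 5 factors differed between the tissues. Their summed RPKM was 150 ± 20.5 in thymus, against 20.2 ± 2.35 in bone and 16.5 ± 4.41 in skin (SD, n = 3 each), and no thymus library was below 128. RPKM carries no TMM factor, and divided by those factors the sums were 132 ± 22.2 in thymus, against 17.0 ± 2.46 in bone and 22.3 ± 5.87 in skin, so that the order of bone and skin turned. Flt3l made up 74.1 ± 7.49% of that sum in thymus, 46.0 ± 5.50% in bone and 60.6 ± 0.423% in skin. Kitl made up 7.75 ± 2.29% in thymus, against 34.0 ± 5.45% in bone and 16.3 ± 3.59% in skin. The ratio of Flt3l to Kitl in RPKM was therefore 7.59 to 16.1 in thymus, against 1.00 to 1.74 in bone and 3.09 to 4.92 in skin, with no overlap between tissues.

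The cytokines took the remainder. Il15 made up 8.62 ± 2.55% of the summed RPKM in thymus, 11.0 ± 2.66% in bone and 15.03 ± 0.563% in skin, and Tslp 8.17 ± 2.85% in thymus, 4.05 ± 3.17% in bone and 7.56 ± 2.87% in skin. Il7 made up 1.35 ± 0.413% in thymus, 4.89 ± 0.306% in bone and 0.436 ± 0.173% in skin (SD, n = 3 each). The share of Il7 was thus highest in bone, although its level was highest in thymus. The ratio of Il15 to Il7 in RPKM was 5.56 to 7.47 in thymus, against 1.61 to 2.97 in bone and 27.0 to 65.4 in skin. These shares and ratios are within a library, so a TMM factor cancels, and they are descriptions, since each depends on the gene lengths the authors used.

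**Figure D3:**
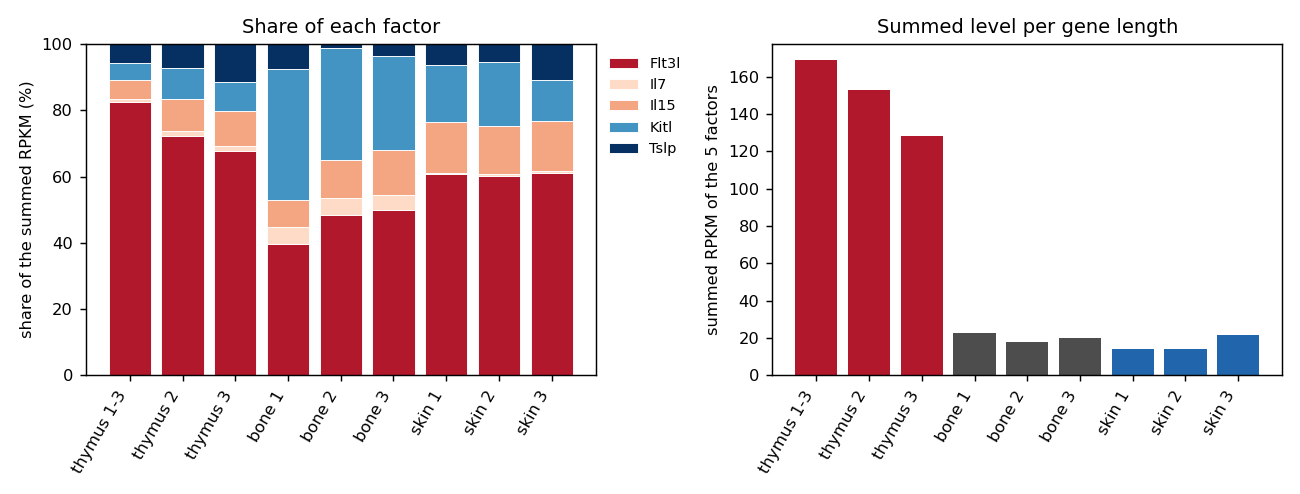
Left, the share (%) of each of the 5 factors in their summed RPKM, per library; right, that summed RPKM per library. Flt3l is the largest share in each library, Kitl follows it most closely in bone 1 (39.5% against 39.7% for Flt3l), and the 3 thymus sums of 128 to 169 stand above all others, which reach 22.7.

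Within a tissue the 5 did not move together. In thymus, Flt3l was highest in library 1-3 and lowest in library 3, whereas Il7, Il15 and Kitl were lowest in 1-3 and highest in 2, and Tslp was lowest in 1-3 and highest in 3. In bone, library 1 was highest for Il7, Kitl and Tslp and lowest for Flt3l. In skin, library 3 was highest for Flt3l, Il7, Il15 and Tslp, and library 2 for Kitl.

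Transcripts of other cell types moved with some of these values, and their part in them was not tested. The summed level of the 13 thymocyte markers was 125, 78.3 and 216 CPM in thymus 1-3, 2 and 3, against 40.2 to 78.7 CPM in bone and 0.132 to 0.819 CPM in skin. All 13 had reads in thymus, while Ptcra and Themis were at 0 in bone and 6 were at 0 in skin, Cd3d and Cd3e among them. Rag1, Rag2 and Dntt, which B cell precursors also express, made up 31.1 to 72.2 CPM of the sum in bone, against 28.3 to 79.7 CPM in thymus. The other 10 markers summed to 84.4, 50.0 and 136 CPM in thymus 1-3, 2 and 3, against 6.37 to 9.09 CPM in bone and 0.117 to 0.819 CPM in skin, the order of tissues of Il7 and Kitl. In thymus 3, the thymus library with most thymocyte reads, Flt3l was lowest and Tslp was highest of the 3 thymus libraries.

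Epithelial markers had their highest sums in skin. The 10 thymic epithelial markers summed to 11.4 to 17.4 CPM in thymus, against 4.48 to 7.25 CPM in bone and 16.3 to 57.2 CPM in skin. All 10 had reads in thymus, Aire and Psmb11 were at 0 in bone and Aire was at 0 in skin. Of the 9 that were tested, 3 were called higher and none lower in thymus minus bone by edgeR, beside 2584 and 2517 of all 15635 genes. In thymus minus skin 3 were higher and 2 lower, beside 3013 and 2865 of all genes. Foxn1, their defining transcription factor, averaged 0.129 ± 0.112 CPM in thymus, 0.0287 ± 0.0081 CPM in bone and 1.39 ± 2.11 CPM in skin, and Krt8, a simple keratin, averaged 3.19 ± 1.45 CPM in thymus, 0.0072 ± 0.013 CPM in bone and 0.0882 ± 0.0437 CPM in skin (SD, n = 3 each). Krt5 and Cldn4, which epidermis also expresses, averaged 2.44 ± 0.807 and 0.563 ± 0.242 CPM in thymus, 0.0800 ± 0.0232 and 0.0868 ± 0.150 CPM in bone and 14.4 ± 8.06 and 9.47 ± 10.6 CPM in skin. The 12 keratinocyte markers summed to 22.5 to 29.5 CPM in thymus, against 6.88 to 11.1 CPM in bone and 65.3, 84.4 and 208 CPM in skin 1, 2 and 3. Krt15 and Dsg3 were at 0 in bone and none of the 12 was at 0 in thymus or skin. Skin 3, with most keratinocyte reads, was also the skin library with most Flt3l, Il15 and Tslp.

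Blood and vessel markers also differed. The 13 myeloid markers summed to 22.1 to 91.3 CPM in thymus, against 2612 to 3622 CPM in bone and 43.5 to 104 CPM in skin, with Elane alone at 0, in skin. The 10 B lineage markers summed to 29.4 to 71.8 CPM in thymus, against 141 to 199 CPM in bone and 0.791 to 2.43 CPM in skin, with Igll1 at 0 in thymus and Igll1 and Vpreb3 among those at 0 in skin. The 10 mural cell markers summed to 1350 to 1643 CPM in thymus, against 432 to 452 CPM in bone and 249 to 282 CPM in skin, the order also seen for Il7 and Kitl, with none at 0. The members did not all share that order. In thymus minus bone 6 were called higher and 2 lower by edgeR, beside 2584 and 2517 of all 15635 tested genes. Des averaged 691 CPM in thymus, 12.6 CPM in bone and 11.7 CPM in skin, and Myh11, Notch3 and Mcam had the same order. Rgs5 and Cspg4 averaged 15.3 and 23.8 CPM in thymus, against 72.1 and 212 CPM in bone. Abcc9, at 375 CPM in thymus, 37.5 CPM in bone and 95.0 CPM in skin, had the order of Flt3l, Il15 and Tslp. So did Acta2, at 58.2, 32.0 and 41.6 CPM, whereas Kcnj8 was highest in skin, at 86.5 CPM. The 10 endothelial markers summed to 143 to 247 CPM in thymus, against 82.9 to 96.4 CPM in bone and 264 to 363 CPM in skin, with none at 0. That sum had the order of tissues of none of the 5 factors, but its members differed. Tek averaged 236 CPM in skin, and Pecam1 and Cdh5 were highest in bone, at 13.9 and 9.98 CPM. Emcn, at 11.9 CPM in thymus, 3.15 CPM in bone and 0.962 CPM in skin, had the order of Il7 and Kitl, as did Esam. Plvap, the largest member of the thymus sum, averaged 100 CPM in thymus, 16.1 CPM in bone and 20.1 CPM in skin. That is the order of Flt3l, Il15 and Tslp, which Cldn5 also had. Plvap stood at 146, 79.7 and 75.6 CPM in thymus 1-3, 2 and 3, highest and lowest in the same libraries as Flt3l.

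The receptors of the 5 factors were measured in the same libraries. Of 7 receptor or presenting chains, 1 was higher, 2 were lower and 4 were not called in thymus minus bone, where their median log2 fold change was -1.11 beside 0.02 over all genes. In thymus minus skin 3 were higher, 1 was lower and 3 were not called, with a median of 1.11 beside 0.03. In bone minus skin 5 were higher, 1 was lower and 1 was not called, with a median of 3.41 beside 0.03. Of all 15635 tested genes, 2584 (16.5%) were higher and 2517 lower in thymus minus bone. In thymus minus skin 3013 (19.3%) were higher and 2865 lower, and in bone minus skin 3702 (23.7%) and 3661 (23.4%).

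Il2rg, the common gamma chain that IL-7 and IL-15 receptors share, had its highest level in thymus. It stood at 51.1, 42.6 and 45.2 CPM in thymus 1-3, 2 and 3, against 11.3, 18.4 and 14.2 CPM in bone 1, 2 and 3 and 1.07, 1.10 and 2.04 CPM in skin 1, 2 and 3. The 3 tissues did not overlap. The difference was 1.66 ± 0.25 for thymus minus bone (adjusted p = 0.000377), 5.04 ± 0.30 for thymus minus skin (adjusted p = 2.48e-07) and 3.37 ± 0.28 for bone minus skin (adjusted p = 2.84e-06), by edgeR. In the same thymus libraries Ptprc, which encodes CD45 of leukocytes, stood at 14.1, 7.26 and 38.6 CPM in 1-3, 2 and 3 and so had its highest value in library 3, whereas Il2rg had its highest in library 1-3. Ptprc averaged 20.0 ± 16.5 CPM in thymus, 76.4 ± 4.21 CPM in bone and 1.29 ± 0.905 CPM in skin (SD, n = 3 each). It was thus lowest in skin, as was Il2rg, but highest in bone, and the part of leukocytes in the level of Il2rg was not tested. The thymocyte markers given above, with and without Rag1, Rag2 and Dntt, had the order of Il2rg, highest in thymus and lowest in skin, and their part in its level was not tested.

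The receptor tyrosine kinases Flt3 and Kit were lower in thymus than in bone, while their ligands Flt3l and Kitl were higher. Flt3 stood at 0.470, 0.201 and 1.25 CPM in thymus 1-3, 2 and 3, against 3.84, 19.7 and 13.1 CPM in bone 1, 2 and 3 and 0.0450, 0.0293 and 0.392 CPM in skin 1, 2 and 3. Thymus minus bone was -4.25 ± 1.02 for Flt3 (adjusted p = 0.0101, edgeR), a call lost without thymus 1-3 (adjusted p = 0.0520), and -5.18 without thymus 3. Bone minus skin was 6.26 ± 1.15 (adjusted p = 0.00147, edgeR), or 8.29 without skin 3. Thymus minus skin was not called (2.01 ± 1.00, adjusted p = 0.149, edgeR), except without skin 3 (4.04, adjusted p = 0.0188). The B lineage and myeloid sums given above were also highest in bone, and their part in the level of Flt3 was not tested.

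Kit stood at 0.657, 0.654 and 0.602 CPM in thymus 1-3, 2 and 3, against 4.42, 27.3 and 14.6 CPM in bone 1, 2 and 3 and 0.315, 0.147 and 1.67 CPM in skin 1, 2 and 3. Bone libraries lay above all others, with the highest value in bone 2, which was also highest for Flt3. Thymus minus bone was -4.59 ± 0.93 (adjusted p = 0.00406) and bone minus skin 4.43 ± 0.92 (adjusted p = 0.00316), by edgeR. Without bone 2 these were -3.89 and 3.73, and without skin 3 bone minus skin was 6.03. Thymus minus skin was -0.17 ± 0.83 and was not called (adjusted p = 0.901, edgeR). Kit is also a marker of mast cells and melanocytes. The 8 mast cell markers other than Kit summed to 1.11, 2.17 and 2.59 CPM in thymus 1-3, 2 and 3, against 21.4, 28.9 and 31.2 CPM in bone 1, 2 and 3 and 2.27 to 4.20 CPM in skin, with Ms4a2 and Mrgprb1 at 0 in thymus, Fcer1a and Mrgprb1 at 0 in bone and Fcer1a and Ms4a2 at 0 in skin. The 6 melanocyte markers other than Kit summed to 17.0 to 20.0 CPM in thymus, against 39.1 to 54.7 CPM in bone and 41.3 to 64.5 CPM in skin, with Tyr, Tyrp1 and Dct at 0 in thymus and bone, Mlana also at 0 in thymus and none at 0 in skin. Hdc made up most of the mast cell sum in bone, averaging 22.7 CPM there, against 2.35 CPM for Cpa3 and less for the others. Mitf made up most of the melanocyte sum in every tissue, at 16.9 CPM in thymus, 46.3 CPM in bone and 40.4 CPM in skin. The part of mast cells and melanocytes in the level of Kit was not tested.

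Il7r, the IL-7 receptor alpha chain that also forms part of the TSLP receptor, averaged 1.66 ± 1.04 CPM in thymus, 10.7 ± 1.45 CPM in bone and 1.00 ± 1.65 CPM in skin (SD, n = 3 each). It was called in none of the 3 comparisons, with adjusted p = 0.136 for thymus minus bone, 0.684 for thymus minus skin and 0.0565 for bone minus skin by edgeR. Skin 3 at 2.91 CPM stood far above skin 1 at 0.0225 and skin 2 at 0.0733. Without skin 3, bone minus skin was 7.83 (adjusted p = 1.08e-05), thymus minus skin was 5.15 (adjusted p = 0.000186) and thymus minus bone was -2.68 (adjusted p = 0.00101), all called by edgeR. Bone minus skin was also called with library size only (4.09, adjusted p = 0.0261), with genes of 1 CPM or more in 3 libraries (3.42, adjusted p = 0.0449), with the replicate block (5.15, adjusted p = 0.0255) and by limma (1.90 on log2(RPKM + 1), adjusted p = 2.5e-05). Thymus minus bone was also called with only the 2 tissues compared (-2.69, adjusted p = 0.00128) and by limma (-1.54 on log2(RPKM + 1), adjusted p = 0.000177).

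Crlf2, which encodes the TSLP receptor's own chain, averaged 9.93 ± 0.702 CPM in thymus, 11.9 ± 1.54 CPM in bone and 4.60 ± 0.825 CPM in skin (SD, n = 3 each). It was higher in thymus than in skin (1.11 ± 0.22, adjusted p = 0.00191) and in bone than in skin (1.37 ± 0.22, adjusted p = 0.000361), by edgeR, and was not called between thymus and bone (-0.26 ± 0.22, adjusted p = 0.393). Il15ra, which presents IL-15 on the cell that makes it, averaged 9.73 ± 1.11 CPM in thymus, 7.65 ± 1.27 CPM in bone and 22.9 ± 7.18 CPM in skin. It was lower in thymus than skin (-1.23 ± 0.24, adjusted p = 0.00166) and in bone than in skin (-1.58 ± 0.24, adjusted p = 0.000246), by edgeR. With library size only the thymus minus skin value of Il15ra was -0.60 and lost its call (adjusted p = 0.0544), and between thymus and bone the gene was not called (0.35 ± 0.24, adjusted p = 0.295). Il15 and Il15ra thus differed in direction between thymus and skin.

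Il2rb, the chain shared by the IL-15 and IL-2 receptors, averaged 1.30 ± 0.754 CPM in thymus, 2.81 ± 0.681 CPM in bone and 0.122 ± 0.141 CPM in skin (SD, n = 3 each). It was higher in thymus than in skin (3.40 ± 1.08, adjusted p = 0.0271) and in bone than in skin (4.51 ± 1.13, adjusted p = 0.00632), by edgeR, and was not called between thymus and bone (-1.11 ± 0.97, adjusted p = 0.42). The thymus minus skin value was 2.82 without thymus 3 (adjusted p = 0.0923), 3.22 without skin 2 (adjusted p = 0.0881), 2.81 without skin 1 and 4.92 without skin 3. Bone minus skin was 3.92 without skin 1 and 6.03 without skin 3.

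**Figure D4:**
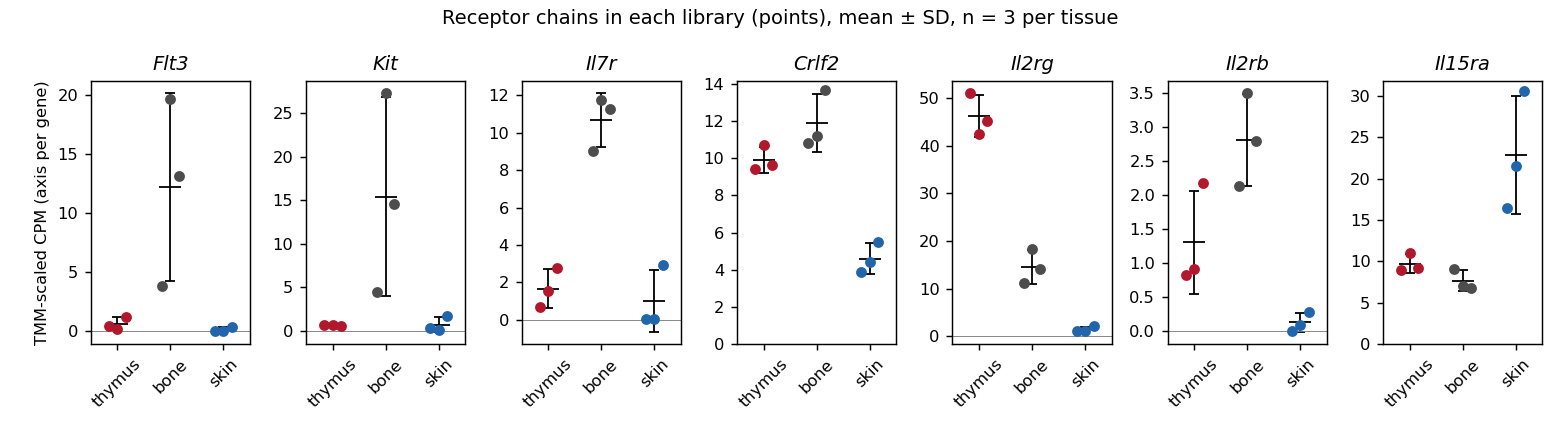
TMM-scaled CPM (y, linear, a separate axis per gene) of the 7 receptor and presenting chains in thymus, bone and skin, with 1 point per library and bars for the mean ± SD of n = 3. Il2rg is highest in thymus at 42.6 to 51.1 CPM, Flt3, Kit and Il7r are highest in bone, and Il15ra is highest in skin at 16.4 to 30.6 CPM; error bars that cross 0 belong to groups where 1 library holds most reads.

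Of 6 proteases reported to release stem cell factor or FLT3 ligand from the membrane, 1 was higher and 1 lower in thymus minus bone. In thymus minus skin 1 was higher and 2 were lower, and in bone minus skin 2 were higher and 2 lower. The medians were -0.29, -0.44 and 0.03, beside 0.02, 0.03 and 0.03 over all genes. In that order of comparisons 16.5, 19.3 and 23.7% of all genes were higher, and 2517, 2865 and 3661 of 15635 were lower. Mmp9, a gelatinase that releases KIT ligand in mouse bone marrow, averaged 549 ± 76.4 CPM in thymus, 92.6 ± 6.27 CPM in bone and 0.674 ± 0.273 CPM in skin (SD, n = 3 each). It was higher in thymus than in bone (2.57 ± 0.22, adjusted p = 4.42e-06) and than in skin (9.65 ± 0.30, adjusted p = 4.79e-09), and higher in bone than in skin (7.08 ± 0.28, adjusted p = 1.92e-08), by edgeR. Mmp2, another gelatinase, averaged 1492 ± 65.9 CPM in thymus, 2062 ± 35.3 CPM in bone and 3374 ± 568 CPM in skin, and was lower in thymus than in bone (-0.47 ± 0.15, adjusted p = 0.0358) and than in skin (-1.18 ± 0.16, adjusted p = 0.000105).

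Mmp2 was also lower in bone than skin (-0.71 ± 0.15, adjusted p = 0.00259, edgeR), which was -0.020 with library size only, and its thymus minus bone call was lost without any of the thymus or bone libraries or skin 2. Mmp14, a membrane-bound protease, averaged 1128 ± 249 CPM in thymus, 799.7 ± 91.7 CPM in bone and 1685 ± 172 CPM in skin (SD, n = 3 each). It was lower in thymus than skin (-0.58 ± 0.18, adjusted p = 0.0232) and in bone than in skin (-1.07 ± 0.18, adjusted p = 0.000456), by edgeR. With library size only the first was 0.050, of the opposite sign, and the second -0.38 and not called (adjusted p = 0.0658), and the first was also lost without thymus 2, thymus 3 or skin 2. Adam17, which releases FLT3 ligand, was called in no comparison and averaged 100 ± 8.28 CPM in thymus, 122 ± 16.1 CPM in bone and 124 ± 32.7 CPM in skin.

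Other haematopoietic and lymphoid factors of stroma went both ways. Of 29 such genes 27 were tested, Ccl21a and Epo having 0 reads in all 9 libraries. In thymus minus bone 9 were higher, 9 lower and 9 not called (median -0.0074 beside 0.02 over all genes). In thymus minus skin 9 were higher, 8 lower and 10 not called (median -0.24 beside 0.03). In bone minus skin 7 were higher, 7 lower and 13 not called (median -0.18 beside 0.03). In that order of comparisons 16.5, 19.3 and 23.7% of all genes were higher, and 2517, 2865 and 3661 of 15635 were lower.

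Il34, a ligand of the CSF1 receptor, averaged 352 ± 67.0 CPM in thymus, 8.98 ± 1.36 CPM in bone and 4.43 ± 2.64 CPM in skin (SD, n = 3 each). It was higher in thymus than in bone (5.29 ± 0.44, adjusted p = 1.70e-05) and than in skin (6.31 ± 0.47, adjusted p = 6.03e-06), by edgeR. Csf1, the other ligand of that receptor, averaged 252 ± 54.8 CPM in thymus, 253 ± 36.4 CPM in bone and 781 ± 84.7 CPM in skin, and was lower in bone than skin (-1.62 ± 0.18, adjusted p = 2.48e-05). Ccl19, a chemokine that draws T cell progenitors, averaged 60.8 ± 4.37 CPM in thymus, 4.09 ± 0.567 CPM in bone and 4.64 ± 0.852 CPM in skin. It was higher in thymus than in bone (3.90 ± 0.19, adjusted p = 9.48e-08) and than in skin (3.71 ± 0.19, adjusted p = 9.96e-08), by edgeR.

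Cxcl12, the chemokine that holds progenitors in bone marrow, averaged 231 ± 34.8 CPM in thymus, 962 ± 117 CPM in bone and 359 ± 82.7 CPM in skin (SD, n = 3 each), and was lower in thymus than in bone (-2.06 ± 0.19, adjusted p = 9.48e-06) and higher in bone than in skin (1.42 ± 0.19, adjusted p = 8.18e-05), by edgeR. Fgf7, a fibroblast factor for epithelium, averaged 13.4 ± 3.82 CPM in thymus, 27.0 ± 4.73 CPM in bone and 54.9 ± 2.40 CPM in skin, and was lower in thymus than skin (-2.03 ± 0.21, adjusted p = 1.54e-05). Osm, a cytokine made mainly by blood cells, averaged 0.116 ± 0.032 CPM in thymus, 13.4 ± 1.58 CPM in bone and 0.525 ± 0.507 CPM in skin. It was higher in bone than in skin (4.66 ± 0.62, adjusted p = 8.68e-05, edgeR), or by 5.82 without skin 3. The sum of the myeloid markers was also highest in bone, and its part in the level of Osm was not tested.

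**Figure D5:**
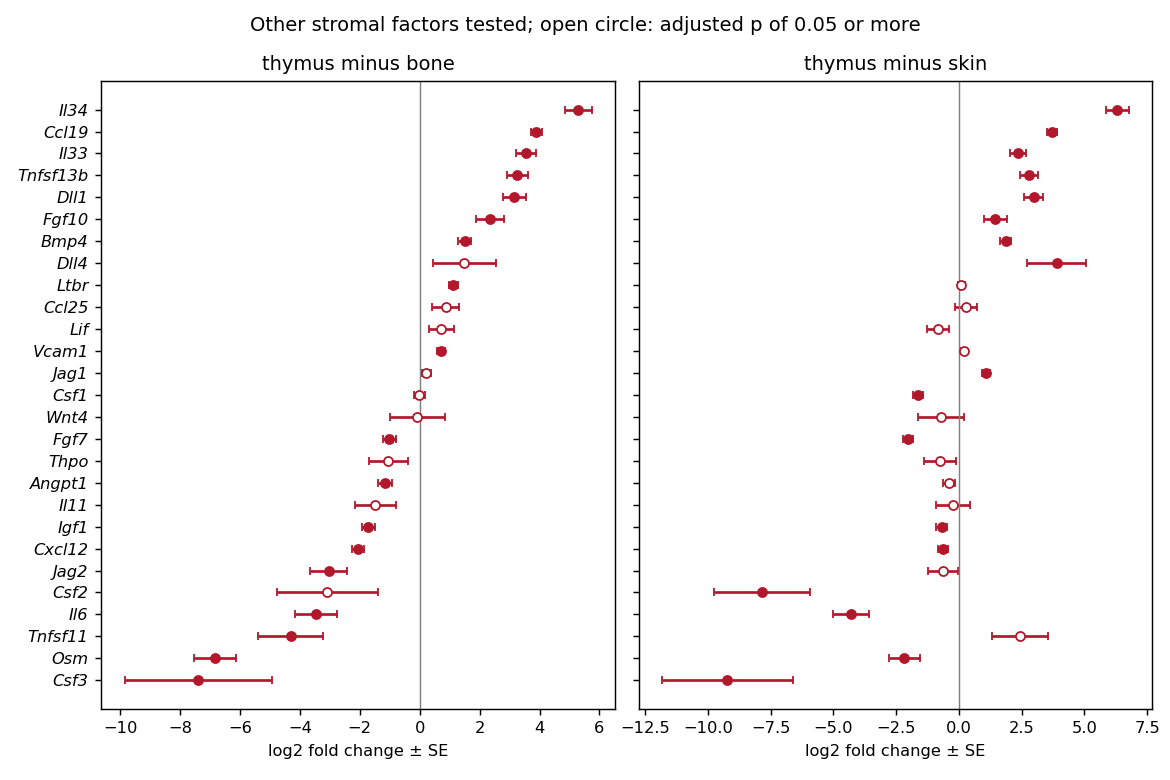
Log2 fold change ± SE (x) from edgeR of the 27 other stromal factors tested (rows), for thymus minus bone (left) and thymus minus skin (right). Filled points are called, in both directions from 0, with Il34 farthest to the right in both panels; the value of Csf3, which had 0 reads in thymus, depends on the prior count of the fit and is no bound.

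Transcription factors with a reported role in these genes or in niche stroma also went both ways. Of 15, 4 were higher, 2 lower and 9 not called in thymus minus bone (median 0.24 beside 0.02 over all genes). In thymus minus skin 3 were higher, 5 lower and 7 not called (median -0.15 beside 0.03). In bone minus skin 3 were higher, 10 lower and 2 not called (median -0.75 beside 0.03). In that order of comparisons 16.5, 19.3 and 23.7% of all genes were higher, and 2517, 2865 and 3661 of 15635 were lower. Foxc1, a factor of the marrow niche cells that make Cxcl12 and Kitl in the mouse, averaged 18.0 ± 2.43 CPM in thymus, 85.2 ± 5.53 CPM in bone and 2.67 ± 0.084 CPM in skin (SD, n = 3 each). It was lower in thymus than in bone (-2.25 ± 0.14, adjusted p = 6.13e-07) and higher than in skin (2.75 ± 0.15, adjusted p = 1.44e-07), and higher in bone than in skin (4.99 ± 0.16, adjusted p = 5.71e-09), by edgeR.

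Irf1, a known activator of Il15, averaged 93.3 ± 17.4 CPM in thymus, 207 ± 14.6 CPM in bone and 584 ± 120 CPM in skin (SD, n = 3 each). It was lower in thymus than in bone (-1.15 ± 0.18, adjusted p = 0.000479) and than in skin (-2.65 ± 0.19 and adjusted p = 9.95e-07), and lower in bone than skin (-1.50 ± 0.18, adjusted p = 4.55e-05), by edgeR. Irf1 and Il15 thus differed in direction between thymus and each other tissue. Rela, an NF-kappaB subunit, was lower in thymus than skin (-1.37 ± 0.24, adjusted p = 0.000823, edgeR). Prrx1, a mesenchymal homeobox factor, was lower in bone than skin (-0.87 ± 0.14, adjusted p = 0.000288, edgeR), which was -0.19 and not called with library size only (adjusted p = 0.276).

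By Pearson's r of log2(CPM + 1) over the 9 libraries, which fall into 3 tissues, the 5 factors formed 2 sets. Flt3l and Il15 had r = 0.962, Il15 and Tslp r = 0.956 and Flt3l and Tslp r = 0.942. Il7 and Kitl had r = 0.968. Pairs across the sets had r of 0.558 to 0.673. These values describe the order of the tissues, since libraries of a tissue share their source and their scaling.

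Among 9583 or 9584 genes compared for each factor, those most like Flt3l were Tshz2 (r = 0.996), Mrgprg (0.991), Rai2 (0.991) and Slamf8 (0.988). Tshz2, a zinc finger homeobox gene, averaged 256 ± 39.4 CPM in thymus, 61.0 ± 8.65 CPM in bone and 79.2 ± 7.22 CPM in skin (SD, n = 3 each). Most like Il15 were Dram1 (0.990), Imp3 (0.988), Stard5 (0.986) and AW112010 (0.984), and most like Tslp were Pdgfra (0.978), Nr1h4 (0.978), Limd1 (0.977) and Lipa (0.975). Most like Il7 were Endod1 (0.992), App (0.991), A4galt (0.991) and Dusp6 (0.989), and most like Kitl were Dnajc27 (0.991), Cpe (0.984), Acacb (0.976) and Anks3 (0.970). Cpe, a prohormone processing enzyme, averaged 474 ± 86.8 CPM in thymus, 306 ± 53.2 CPM in bone and 151 ± 14.5 CPM in skin, which is the order of Kitl.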

How the data were processed

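RNA sequencing of 9 libraries was analysed from whole-number read counts per gene and from RPKM values, both deposited by the authors. Per the submitters' processing notes, HTSeq 0.5.4 and CASAVA 1.8.2 were used with the build mm10. The sources used here do not give the aligner, annotation, strand setting or RPKM gene lengths. A deposited signal column of about 99 read bases per read was used to check RPKM and for the read bases per read of Flt3l and Il15. Summary lines, 5.05 to 14.8% of the reads, stayed out of library sizes and tests. Libraries of a tissue differed by a chi-square of 92.9 or more per degree of freedom, and each was counted as 1 replicate.

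Tests of the counts used edgeR 4.0.16 on R 4.3.3 (quasi-likelihood, robust, TMM, filterByExpr by tissue) in 1 fit of all 9 libraries. The SE was worked back from the F statistic and is approximate. Scripts were tested on simulated data. RPKM ranks used the 23034 symbols with a single line.

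The 5 genes, the lists and the tests were chosen with earlier results of these data known. All 5 genes and all receptor chains are named. Of each other pathway list up to 3 genes with the smallest p per comparison are named, plus Adam17, which was added after its values were seen. Some values that this rule covers are not reported here. For each factor the 4 genes most like it are named, among tested genes reaching a mean of 10 CPM in a tissue and leaving out predicted genes.

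Alternatives were RLE, upper quartile and library size only, no filter, 1 CPM or more in 3 libraries, DESeq2 1.42.0, limma 3.58.1 on log2 of RPKM plus 1 or 0.1 (RPKM of 1 or more in 3 libraries, or no filter), a replicate block, only the 2 tissues compared, and leaving out each library. Promoter windows are those of RefSeq on GRCm38.p6, and exons those of GENCODE M21.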

Additional observations from a re-analysis of the deposited data

How the results depend on the processing

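Of 300 values (15 tests of the 5 factors under 20 alternatives each), 274 kept direction and call, 22 lost a call, 4 gained one and none changed sign. The cause of the changes was not tested. Il7 in thymus minus bone gained a call by limma on log2(RPKM + 1) at 0.58 with or without the filter (adjusted p = 0.0128 and 0.0144), and on log2(RPKM + 0.1) at 0.92 (adjusted p = 0.0443). Flt3l in bone minus skin lost its call with library size only (-0.14) and by limma (-0.082, -0.088 with a pseudocount of 0.1 and -0.082 unfiltered). Il15 in bone minus skin lost its call with library size only (-0.11), by limma (-0.11, -0.15 with a pseudocount of 0.1 and -0.11 unfiltered) and with only the 2 tissues compared (-0.79, adjusted p = 0.113). Leaving out 1 library at a time gave 0.53 to 0.97 for Kitl in thymus minus bone and 2.32 to 3.28 for Tslp in thymus minus skin. In bone minus skin it gave -0.96 to -0.57 for Flt3l, -1.01 to -0.55 for Il15 and -2.12 to -0.45 for Tslp. With the replicate number as a block, 3399 genes were called in thymus minus bone, against 5101 without it. The block changed no call of the 5 factors. Thymus 1-3 shares its number with no other library, so under the block the thymus differences rest on thymus 2 and thymus 3. The 7 same-numbered pairs had r from -0.08 to 0.09. With 3 libraries per tissue these values cannot decide whether a number marks a shared animal or batch.

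Of the receptors and other named genes, 894 values under an alternative kept direction and call, 26 lost a call, 21 gained one and 4 changed sign. Kit in thymus minus skin, at -0.17 and not called, was 0.45 with library size only, 0.042 by limma unfiltered, and -0.64 to 1.44 when a library was left out, the highest without skin 3. Mmp14 in thymus minus skin was 0.050 with library size only. On log2(RPKM + 1) the splits of called genes were 6476 higher and 1181 lower for thymus minus skin, and 6219 higher and 1542 lower for bone minus skin. Of the 5 factors, Il7 in skin rests on few reads, 10 to 36 per library, as do the receptors Il2rb and Flt3 there, with 30 and 40 over the 3 libraries, and with 3 libraries per tissue the spread itself is poorly known.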
